A study of Mus musculus with 12 samples.

Results

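The 8 genes described here are transport and marker genes of the thick ascending limb of the loop of Henle: *Slc12a1*, *Kcnj1*, *Bsnd*, *Cldn16*, *Cldn19*, *Tmem207*, *Casr* and *Umod*. They were taken by gene symbol from a table of read counts for 54532 genes, and each symbol matched 1 row. The set was selected on measured values of these same libraries, namely the log2 fold changes between the cystic groups and between cystic and noncystic *Pkd2* +/+ kidneys. Those comparisons, and the difference of the deletion effects, are therefore given as descriptions of the 8 genes, with no p-value for a single gene. Where a gene is said to pass or miss the threshold in them, this describes how the call depends on the fit. It is not support for a difference. The comparison of cystic with noncystic *Pkd2* Δ17/Δ17 kidneys shares the cystic deletion mice with the choice of the set. Its p-values are printed for single genes, but they are not independent support either. All 8 genes were among the 24642 genes that passed the cutoff on low counts.

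RNA was sequenced from whole kidneys of 12 C57BL/6 mice that were 18 days old, in 4 groups of 3. Single mice are called by the numbers of their labels. Mice 19 to 21 were the noncystic *Pkd2* +/+ group, and mice 22 to 24 the noncystic group with the deletion. Mice 25 to 27 were cystic with intact *Pkd2*, mice 28 to 30 were cystic with the deletion, and values per mouse follow this order. All 12 mice carried 1 *Pkd1* RC allele, a hypomorphic missense allele of the gene for polycystin-1, together with a floxed *Pkd1* allele. In the cystic mice, KspCre, a Cre recombinase driven by the cadherin-16 promoter in tubule epithelium of the distal nephron and collecting duct, had deleted the floxed allele (*Pkd1* RC/-). The noncystic mice had no Cre and kept the allele (*Pkd1* RC/+). In each of these states 1 group was *Pkd2* +/+ and the other was *Pkd2* Δ17/Δ17, a CRISPR deletion of the binding motif for the microRNA miR-17 from both copies of the *Pkd2* 3′-UTR. The design asks how the cystic state changes the segment's genes, and how the deletion, which frees *Pkd2* from miR-17, changes them in either state. KspCre is itself active in the thick ascending limb, so presence of Cre, loss of the floxed allele and cystic state cannot be told apart.

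The thick ascending limb reabsorbs salt without water and so dilutes the urine and builds the medullary gradient. At the apical membrane NKCC2 (*Slc12a1*) takes up sodium, potassium and chloride, and ROMK (*Kcnj1*) returns potassium to the lumen. Chloride leaves across the basolateral membrane through channels that need barttin (*Bsnd*). The lumen becomes positive, and this voltage drives calcium and magnesium between the cells through pores of claudin-16 and claudin-19 (*Cldn16*, *Cldn19*). The calcium-sensing receptor (*Casr*) restrains this transport. Uromodulin (*Umod*) is the main protein that the segment secretes into urine, and *Tmem207* encodes a small membrane protein of less certain role.

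The allele that separates the *Pkd2* genotypes lacks the site read by the seed of miR-17, so the family's mature sequences are shown with the seed (bases 2 to 8) in capitals, as RefSeq gives them for GRCm38.p6.
mmu-miR-17-5p: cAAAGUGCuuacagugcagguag
mmu-miR-20a-5p: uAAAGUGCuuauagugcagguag
mmu-miR-93-5p: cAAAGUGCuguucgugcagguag
The 3 microRNAs share the seed, and its complement in a transcript reads GCACTTT. In the longest annotated 3′-UTR of each of the 8 genes (GENCODE M21), these 7 letters were found in 0 of 8, against 13.6% of the 16820 tested genes that have an annotated 3′-UTR. The 3′-UTRs searched ran from 114 bases in *Cldn16* to 3468 bases in *Cldn19*.

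Libraries held 18800307 to 24453033 counts, of which the top 10 genes of each library held 8.91% to 9.76% in noncystic and 4.86% to 5.93% in cystic kidneys. Levels are given as CPM, counts divided by the size of the library after TMM scaling, which multiplies each library total by a factor so that most genes match between libraries. *Pkd2* itself was at 210 ± 13.9 CPM (SD, n = 3) in noncystic *Pkd2* +/+, 278 ± 7.68 in noncystic *Pkd2* Δ17/Δ17, 226 ± 11.2 in cystic *Pkd2* +/+ and 326 ± 16.7 in cystic *Pkd2* Δ17/Δ17 kidneys, so both deletion groups lay above their +/+ groups without overlap. By edgeR the log2 fold change was 0.53 (SE 0.08, adjusted p = 0.0025) in cystic and 0.41 (SE 0.08, unadjusted p = 8.21e-05, adjusted p = 0.771) in noncystic kidneys. *Pkd1* averaged 59.6 to 73.3 CPM in the 4 groups and was called in none of the comparisons. *Xist* was at 431 to 811 CPM in 6 libraries and 5.47 to 7.74 CPM in the other 6, with 1 high library in the noncystic *Pkd2* +/+ and the cystic *Pkd2* Δ17/Δ17 group and 2 in each of the other groups.

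The member genes of this segment did not behave as a block. Comparing cystic with noncystic *Pkd2* +/+ kidneys, *Tmem207*, *Bsnd* and *Slc12a1* were lower in every cystic mouse than in any noncystic mouse, while *Cldn16* and *Cldn19* were higher in every cystic mouse. *Kcnj1*, *Casr* and *Umod* overlapped between the groups. At a Benjamini-Hochberg adjusted p under 0.05 over all genes in edgeR's quasi-likelihood test, 4 members were lower and 2 higher, where 14.2% and 16.9% of the 24642 genes tested were called in these directions (31.1% in all). Groups did not overlap for 5 of 8 members, 3 lower and 2 higher, and for 41.7% of all genes (19.7% lower, 22% higher). The members' median log2 fold change was -0.41, beside 0.02 over all genes. The plot of levels by group shows each of the 12 mice for the 8 genes.

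**Figure D1:**
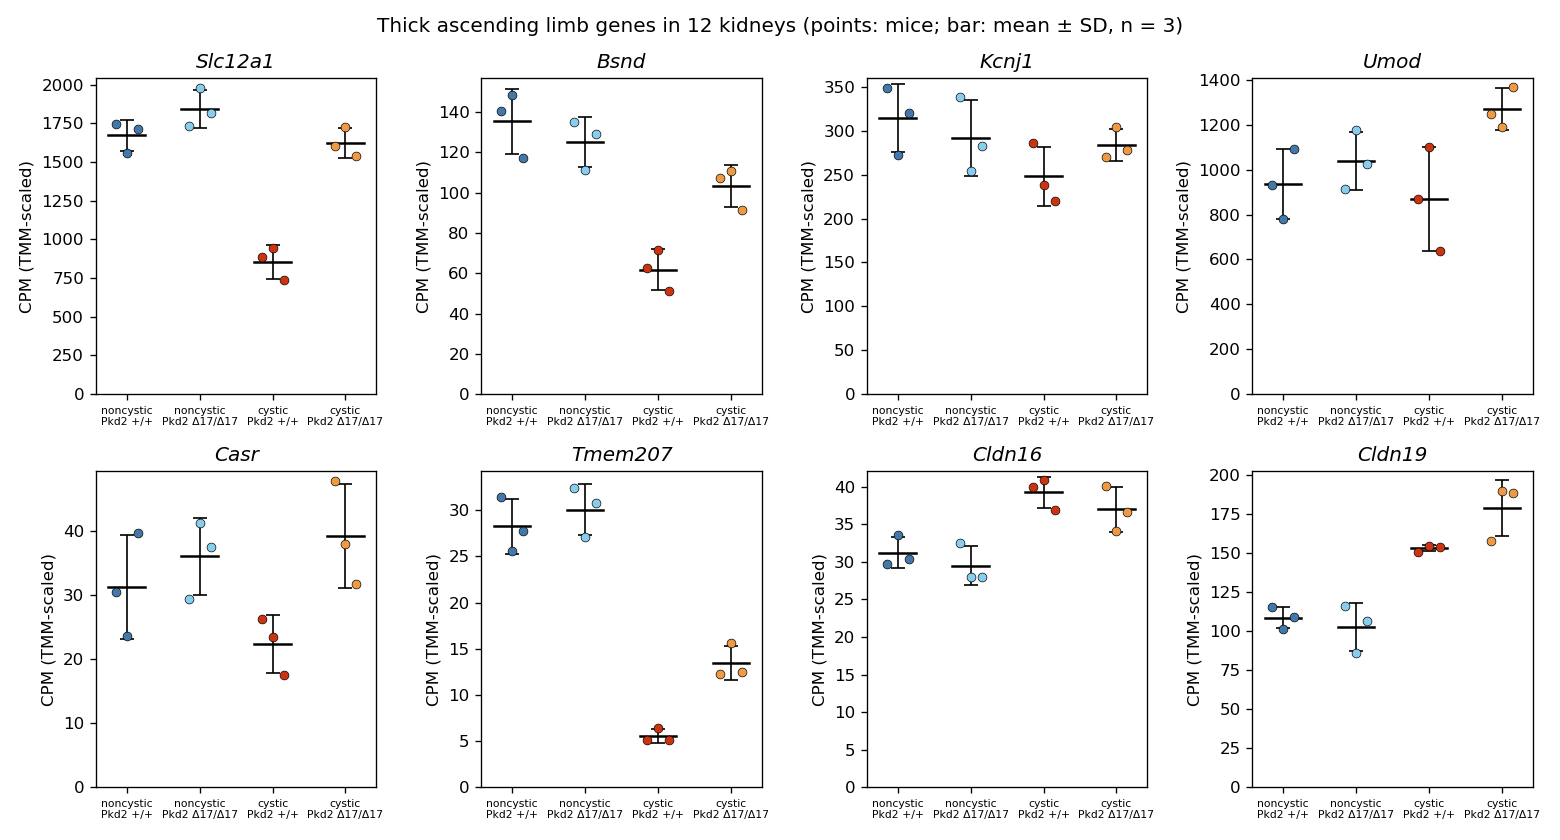
Level of each of the 8 genes in TMM-scaled CPM (vertical axes start at 0) for the 4 groups on the horizontal axis. Points are mice, the thick line is the mean and the bar is 1 SD (n = 3). In cystic *Pkd2* +/+ kidneys *Tmem207* sits at 5.08 to 6.36 CPM and *Slc12a1* at 735 to 942 CPM, below all other groups, while *Cldn19* sits at 151 to 155 CPM, above both noncystic groups.

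*Slc12a1* (chr2:125152505-125230002, + strand, GRCm38; 28 exon blocks) had 1748, 1557 and 1715 CPM in the noncystic *Pkd2* +/+ mice and 1733, 1979 and 1820 CPM in the noncystic *Pkd2* Δ17/Δ17 mice. The cystic *Pkd2* +/+ mice had 886, 942 and 735 CPM, and the cystic *Pkd2* Δ17/Δ17 mice 1607, 1726 and 1538 CPM. The cystic *Pkd2* +/+ group stood apart, at about the level of 0.51 times its noncystic control (log2 fold change -0.97, SE 0.10). The cystic *Pkd2* Δ17/Δ17 group was 1.9 times the cystic *Pkd2* +/+ group (log2 fold change 0.93, SE 0.10) and overlapped the noncystic *Pkd2* +/+ mice. Across the deletion mice the cystic kidneys were still below the noncystic ones without overlap, by a log2 fold change of -0.18 (SE 0.10, 95% interval -0.402 to 0.035, adjusted p = 0.238 by edgeR). An antisense gene, Gm14002, lies within *Slc12a1* without shared exon bases and had 3 to 19 counts per library.

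*Bsnd* (chr4:106483456-106492283, - strand), the subunit that basolateral chloride channels need to reach the membrane, was likewise lowest in the cystic *Pkd2* +/+ mice. The noncystic mice had 141, 148 and 117 CPM (*Pkd2* +/+) and 135, 112 and 129 CPM (*Pkd2* Δ17/Δ17). The cystic mice had 62.8, 71.4 and 51.3 CPM (*Pkd2* +/+) and 107, 111 and 91.6 CPM (*Pkd2* Δ17/Δ17). The cystic *Pkd2* +/+ mice were the lowest of the 4 groups, and the cystic *Pkd2* Δ17/Δ17 mice lay between them and both noncystic groups without overlapping either. Log2 fold changes were -1.13 (SE 0.12) for cystic against noncystic *Pkd2* +/+ and 0.74 (SE 0.12) for the deletion in cystic kidneys. The ratio of *Bsnd* to *Slc12a1* counts within a library was 0.0813 ± 0.0136 in noncystic *Pkd2* +/+ and 0.0684 ± 0.0111 in noncystic *Pkd2* Δ17/Δ17 mice (SD, n = 3). It was 0.0722 ± 0.00314 in cystic *Pkd2* +/+ and 0.0635 ± 0.00363 in cystic *Pkd2* Δ17/Δ17 mice. These cystic groups did not overlap, at 0.0698 to 0.0757 and 0.0596 to 0.0667. Both overlapped the noncystic *Pkd2* Δ17/Δ17 mice (0.0563 to 0.0780).

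*Kcnj1* (chr9:32372493-32399197, + strand), the apical potassium channel that works beside NKCC2, differed far less. It ran from 273 to 349 CPM in noncystic *Pkd2* +/+, 254 to 339 in noncystic *Pkd2* Δ17/Δ17, 220 to 286 in cystic *Pkd2* +/+ and 270 to 305 in cystic *Pkd2* Δ17/Δ17 mice, and all 4 ranges overlapped. The log2 fold change of cystic against noncystic *Pkd2* +/+ kidneys was -0.34 (SE 0.12), and the call was lost with library totals in place of TMM factors (-0.18) and without mouse 19, 21, 26 or 27 (-0.34 to -0.26). The number of *Kcnj1* counts per *Slc12a1* count was 0.187 ± 0.0123 in noncystic *Pkd2* +/+, 0.292 ± 0.0353 in cystic *Pkd2* +/+ and 0.175 ± 0.00653 in cystic *Pkd2* Δ17/Δ17 mice. In whole kidney the counts of the 2 genes were thus in a different proportion in the cystic *Pkd2* +/+ group. There every mouse had a higher ratio than any mouse of the other 3 groups. Which cells the reads of either gene came from is not known.

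The 2 claudins that form the cation pore went the other way. *Cldn16* (chr16:26463135-26482765, + strand) had 29.7, 33.6 and 30.4 CPM in noncystic *Pkd2* +/+ mice and 40.0, 40.9 and 37.0 CPM in cystic *Pkd2* +/+ mice. With the deletion it had 27.98 to 32.5 CPM (mean 29.5) in noncystic mice and 40.1, 34.1 and 36.7 CPM in cystic mice. Cystic kidneys were above noncystic kidneys without overlap in either *Pkd2* genotype, by log2 fold changes of 0.33 (SE 0.09) in each. Among deletion mice, of which the cystic ones were part of what chose the genes, this passed the threshold (adjusted p = 0.0177 by edgeR). It did not without mouse 23, 24 or 28 (adjusted p 0.0778 to 0.0905 by edgeR). In *Pkd2* +/+ mice the call was lost without mouse 19 or 21 (0.30 and 0.29). The cystic groups overlapped each other (log2 fold change -0.09, SE 0.09, for the deletion).

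*Cldn19* (chr4:119255414-119262438, + strand) had 115, 102 and 109 CPM in noncystic *Pkd2* +/+ mice and 116, 85.9 and 107 CPM in noncystic *Pkd2* Δ17/Δ17 mice. The cystic *Pkd2* +/+ mice had 151, 155 and 154 CPM, the narrowest spread of any member in any group in relation to its mean, and the cystic *Pkd2* Δ17/Δ17 mice had 158, 190 and 189 CPM. The cystic groups were both above the noncystic groups, with the deletion group the highest. Among deletion mice the log2 fold change was 0.80 (SE 0.10, adjusted p = 2.68e-05 by edgeR), a level 1.74 times the noncystic one. In *Pkd2* +/+ mice it was 0.50 (SE 0.10), and the deletion in cystic kidneys added 0.22 (SE 0.10), with no overlap between the groups. An antisense gene, Gm12927, shares 90 exon bases with *Cldn19* and had 1 to 11 counts per library against 1575 or more for *Cldn19*.

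*Tmem207* (chr16:26503656-26526769, - strand) had the largest differences of the 8 genes. It was at 31.5, 25.6 and 27.8 CPM in noncystic *Pkd2* +/+ mice, 32.4, 27.1 and 30.8 CPM in noncystic *Pkd2* Δ17/Δ17 mice, 5.11, 6.36 and 5.08 CPM in cystic *Pkd2* +/+ mice and 12.3, 15.6 and 12.5 CPM in cystic *Pkd2* Δ17/Δ17 mice. The cystic groups were apart from each other and from the noncystic groups in every mouse. Its level in cystic *Pkd2* +/+ kidneys was 0.195 times the noncystic level (log2 fold change -2.36, SE 0.14), from 108 to 132 counts per library. The cystic *Pkd2* Δ17/Δ17 kidneys were at 2.44 times the cystic *Pkd2* +/+ level (log2 fold change 1.29, SE 0.14) and at 0.447 times the noncystic deletion level (-1.16, SE 0.13, adjusted p = 8.36e-06 by edgeR). Among the 8 genes this was also the largest difference between cystic and noncystic deletion mice.

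*Tmem207* and *Cldn16* are neighbours on chromosome 16, 20890 bases apart on opposite strands with 0 annotated genes between them. They differed in opposite directions in cystic kidneys. The number of *Cldn16* counts per *Tmem207* count was 1.12 ± 0.188 in noncystic *Pkd2* +/+, 0.982 ± 0.064 in noncystic *Pkd2* Δ17/Δ17, 7.18 ± 0.71 in cystic *Pkd2* +/+ and 2.80 ± 0.552 in cystic *Pkd2* Δ17/Δ17 mice (SD, n = 3). The ratio needs no scaling between libraries, and the cystic groups overlapped neither each other nor the noncystic groups. *Casr* lies on the same chromosome, 9966926 bases further along. The ratio of *Cldn19* to *Bsnd* moved likewise, from 0.812 ± 0.124 and 0.819 ± 0.0444 in the noncystic groups to 2.52 ± 0.427 in cystic *Pkd2* +/+ and 1.75 ± 0.296 in cystic *Pkd2* Δ17/Δ17 mice.

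**Figure D2:**
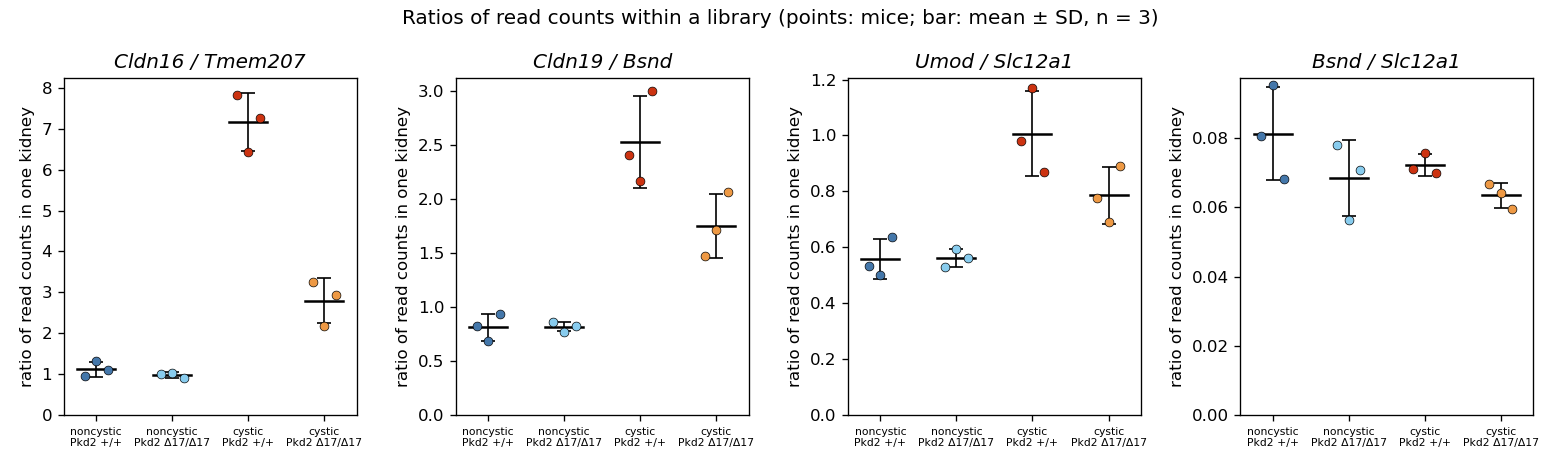
Ratios of the read counts of 2 genes within a library (vertical axes start at 0) for the 4 groups. Points are mice, the thick line is the mean and the bar is 1 SD (n = 3). *Cldn16* to *Tmem207* lies at 6.42 to 7.83 in cystic *Pkd2* +/+ and at 0.911 to 1.32 in the 6 noncystic mice. *Bsnd* to *Slc12a1* lies at 0.0563 to 0.0953 over all 12 mice, with the cystic groups apart from each other.

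*Casr* (chr16:36493696-36562141, - strand), the receptor through which blood calcium lowers transport in the segment, varied most within groups, with a within-group SD of 0.31 on the log2 scale against 0.11 for *Cldn16*. It had 30.5, 23.6 and 39.8 CPM in noncystic *Pkd2* +/+, 29.5, 41.3 and 37.6 CPM in noncystic *Pkd2* Δ17/Δ17, 26.3, 23.5 and 17.5 CPM in cystic *Pkd2* +/+ and 47.9, 38.0 and 31.8 CPM in cystic *Pkd2* Δ17/Δ17 mice. All cystic deletion mice were above all cystic *Pkd2* +/+ mice, and each of these 2 groups overlapped the noncystic *Pkd2* +/+ mice. The log2 fold change was -0.48 (SE 0.19) for cystic against noncystic *Pkd2* +/+ kidneys and 0.80 (SE 0.19) for the deletion in cystic kidneys. The first did not pass the threshold, but did by DESeq2 (-0.51), with no cutoff on low counts (-0.48), with *Xist* as a covariate (-0.58) and without mouse 20 (-0.67) or 25 (-0.61). The second passed in the fit of all 12 mice, but not when only the compared groups were fitted (0.81) or without mouse 26, 27, 28 or 29 (0.64 to 0.84). Among deletion mice it was 0.12 (SE 0.19, adjusted p = 0.731 by edgeR), with a sign that turned without mouse 22 (-0.02) or 28 (-0.05).

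*Umod* (chr7:119462711-119479282, - strand), the glycoprotein of urinary casts, was highest in the cystic deletion mice, with the other 3 groups overlapping. It had 932, 781 and 1092 CPM in noncystic *Pkd2* +/+, 916, 1175 and 1023 CPM in noncystic *Pkd2* Δ17/Δ17, 870, 1103 and 638 CPM in cystic *Pkd2* +/+ and 1250, 1190 and 1370 CPM in cystic *Pkd2* Δ17/Δ17 mice. Each cystic deletion mouse was above every mouse of the other 3 groups. In *Pkd2* +/+ kidneys the cystic state went with a log2 fold change of -0.10 (SE 0.16), which was 0.05 with library totals. The deletion in cystic kidneys gave 0.55 (SE 0.16), which passed the threshold without mouse 26 (0.75), by DESeq2 and with no cutoff on low counts but not otherwise, and cystic against noncystic deletion mice gave 0.29 (SE 0.16, 95% interval -0.05 to 0.64, adjusted p = 0.236 by edgeR). Relative to *Slc12a1*, *Umod* counts were 0.557 ± 0.0708 and 0.562 ± 0.0327 in the noncystic groups, 1.01 ± 0.153 in cystic *Pkd2* +/+ and 0.786 ± 0.101 in cystic *Pkd2* Δ17/Δ17 mice. An antisense gene, Gm44588, shares 539 exon bases with *Umod* and had 0 counts in every library.

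Across the 8 genes, the deletion in cystic kidneys called 4 members higher (*Slc12a1*, *Bsnd*, *Casr* and *Tmem207*) and 0 lower, where 1.19% of all genes were called higher, 1.04% lower and 2.23% in either direction. Groups did not overlap for 6 of 8 members, all higher, and for 19% of all genes (8.79% higher). The members' median log2 fold change was 0.64, beside 0.001 over all genes. These mice were part of what chose the genes, so nothing is read from the difference. Mouse 27 was below its group's mean in 7 of 8 members and mouse 26 above it in 7 of 8, both in the cystic *Pkd2* +/+ group.

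The noncystic kidneys took no part in the comparison between the cystic groups, though the *Pkd2* +/+ ones were the controls of the cystic *Pkd2* +/+ mice. In them the deletion changed 0 of the 8 genes at the threshold. Log2 fold changes ran from -0.11 (*Bsnd*, 95% interval -0.36 to 0.14) to 0.20 (*Casr*, 95% interval -0.20 to 0.61), with adjusted p-values of 0.815 to 0.912 by edgeR. The count was 0 of 8 by edgeR, limma-trend and DESeq2, and 0 of 8 at an unadjusted p under 0.05, where 0.00406% of all genes were called (1 gene) and 6.31% had an unadjusted p under 0.05. The 2 groups overlapped for all 8 genes, whereas 5.69% of all genes were higher and 5.09% lower without overlap. The 95% intervals of *Slc12a1* (-0.08 to 0.36) and *Tmem207* (-0.18 to 0.36) leave room for changes of that size.

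The difference of the 2 deletion effects, cystic minus noncystic, was 1.20 (SE 0.19) for *Tmem207*, 0.85 (SE 0.17) for *Bsnd*, 0.79 (SE 0.15) for *Slc12a1* and 0.60 (SE 0.27) for *Casr*, all on the log2 scale. For *Umod*, *Kcnj1* and *Cldn19* it was 0.40 (SE 0.23), 0.30 (SE 0.17) and 0.30 (SE 0.14), and for *Cldn16* -0.004 (SE 0.13). By edgeR 0 of 8 members passed the adjusted threshold where 0.0122% of all genes were called (0.00812% higher), and 4 had an unadjusted p under 0.05, where 8.33% of all genes did. Limma-trend called 1 member and DESeq2 3, and edgeR called 1 without mouse 20 or 22, 2 without mouse 25 and 3 without mouse 26 or 30. The difference shares the cystic mice with the comparison that chose the genes.

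Among deletion mice, 3 of 8 members differed between cystic and noncystic kidneys (*Cldn16* and *Cldn19* higher, *Tmem207* lower) by edgeR, limma-trend and DESeq2 alike, where 23% of all genes were called (12.8% higher, 10.2% lower). Groups did not overlap for 6 members, 3 in each direction, and for 37.9% of all genes (20.2% higher, 17.7% lower). This comparison shares the cystic *Pkd2* Δ17/Δ17 mice with the one that chose the genes. *Slc12a1*, *Bsnd*, *Kcnj1*, *Casr* and *Umod* did not pass, with log2 fold changes from -0.28 (*Bsnd*, SE 0.12, adjusted p = 0.11) to 0.29 (*Umod*). *Bsnd* passed without mouse 23 (log2 fold change -0.38, adjusted p = 0.0499), and with no cutoff on low counts *Bsnd* (adjusted p = 0.0116) and *Umod* (adjusted p = 0.0292) passed. In this comparison *Kcnj1* was at -0.04 (SE 0.12, adjusted p = 0.876), and at 0.12 with library totals. The plot of log2 fold changes sets the 4 comparisons side by side.

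**Figure D3:**
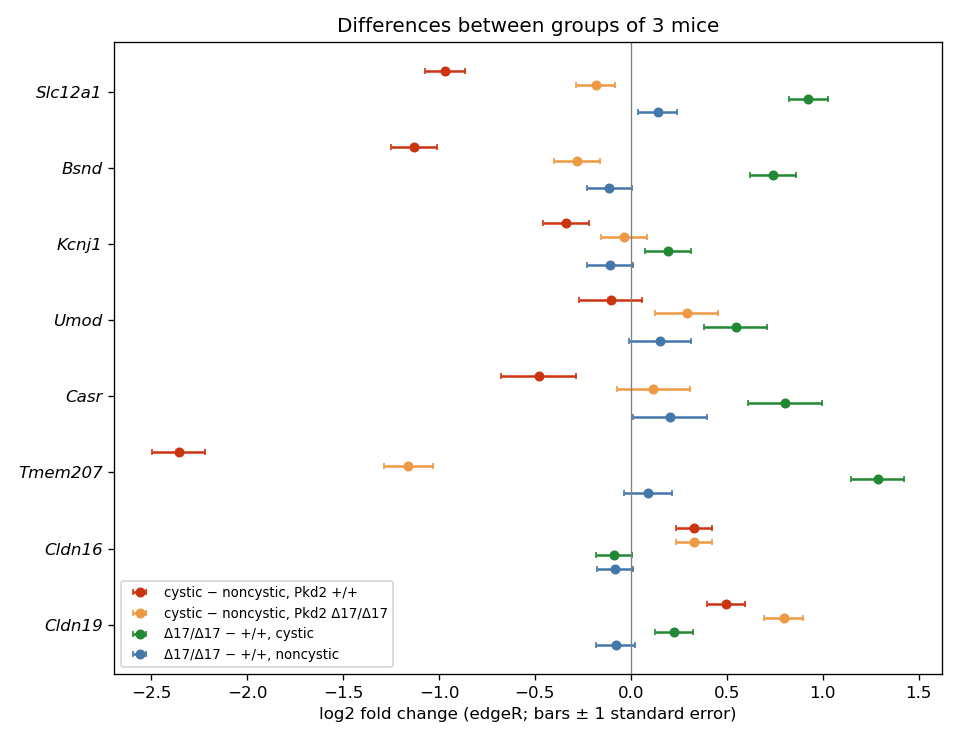
Log2 fold change of each of the 8 genes (horizontal axis) in 4 comparisons between groups of 3 mice, by edgeR. Points are estimates and bars are 1 standard error. *Tmem207* runs from -2.36 (cystic minus noncystic, *Pkd2* +/+) to 1.29 (deletion in cystic kidneys), and all noncystic deletion values lie between -0.11 and 0.20. The comparisons share groups.

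Levels between genes were compared per kilobase of exon, as CPM per kilobase. In noncystic *Pkd2* +/+ kidneys the order was *Umod* (338 ± 56.3), *Slc12a1* (290 ± 17.7), *Kcnj1* (94.3 ± 11.6), *Bsnd* (49.1 ± 5.94), *Cldn16* (26.6 ± 1.80), *Cldn19* (25.5 ± 1.60), *Tmem207* (10.5 ± 1.11) and *Casr* (6.64 ± 1.73), with *Umod* and *Slc12a1* overlapping, and *Cldn16* and *Cldn19* likewise. In cystic *Pkd2* +/+ kidneys *Cldn19* (35.9 ± 0.475) and *Cldn16* (33.5 ± 1.76) stood above *Bsnd* (22.4 ± 3.65), and *Tmem207* (2.05 ± 0.272) fell to the last place under *Casr* (4.75 ± 0.958), with no neighbours overlapping. In cystic *Pkd2* Δ17/Δ17 kidneys *Cldn19*, *Bsnd* and *Cldn16* formed a chain of overlapping neighbours at 42.0 ± 4.23, 37.5 ± 3.73 and 31.5 ± 2.57.

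Promoters were searched for motifs of factors at work in kidney tubules, in windows of 250 bases before to 50 after the RefSeq gene start (GRCm38.p6, both strands, 7 of the 8 genes in the table). The nuclear receptor motif AAGGTCA, which *Esrrb* and its relatives bind, was in 1 of 7, *Tmem207*, and in 4.72% of all 32851 windows. The POU octamer ATGCAAAT was in 0 of the 7 genes and in 1.74% of all windows. Other motifs searched are not reported here. The AAGGTCA match is shown on the strand of the gene with the motif in capitals, as the only match of the motifs named here. Whether it bears on the level of *Tmem207* was not tested.
*Tmem207*, 140 bases before the start, chr16:26526897-26526919, - strand, motif on the opposite strand: ctgggttcTGACCTTaaactcct
A match is a run of letters and does not show that a factor binds there.

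The other genes of the segment came from 7 lists of 34 genes in all, taken from general knowledge of the segment. The lists were made with earlier results of these data known, so their counts and p-values are not independent support. Between cystic and noncystic *Pkd2* +/+ kidneys 24 were lower and 6 higher (30 of 34, beside 31.1% of all genes), with a median log2 fold change of -0.74, and with library totals 20 were lower and 7 higher, with 0 called genes changing sign. All 8 genes of basolateral exit and the sodium pump were lower (6 of 8 with library totals), among them *Fxyd2*, the pump's small regulatory subunit, by a log2 fold change of -1.35 (SE 0.10), and *Slc12a7*, a potassium-chloride cotransporter, by -0.29 (SE 0.09). Of the 5 hormone receptors 3 were lower, with *Gcgr*, the glucagon receptor, at -2.295 (SE 0.16, adjusted p = 3.63e-08 by edgeR). *Avpr2* (-1.57, SE 0.75) and *Calcr* (-1.13, SE 0.54) did not pass. They had only 3 to 5 and 2 to 11 counts per library in cystic *Pkd2* +/+ kidneys. *Egf*, whose precursor the distal nephron sheds into urine, was the lowest of the 34 at -3.065 (SE 0.165, adjusted p = 4.76e-09), and *Hpn*, the protease that releases uromodulin, was at -0.91 (SE 0.09). The number of *Slc12a1* counts per *Egf* count was 0.957 ± 0.0301 in noncystic *Pkd2* +/+, 4.25 ± 1.23 in cystic *Pkd2* +/+ and 3.58 ± 0.206 in cystic *Pkd2* Δ17/Δ17 kidneys.

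The claudins outside the member list were split too between cystic and noncystic *Pkd2* +/+ kidneys. *Cldn10*, of which a form is the sodium pore of the segment, was lower at -1.33 (SE 0.10). Counts are per gene, so its forms and the cells its reads came from were not separated. *Cldn3* was higher at 1.88 (SE 0.11, adjusted p = 1.18e-08 by edgeR), with 22.4 to 26.8 CPM in noncystic and 76.3 to 99.9 CPM in cystic *Pkd2* +/+ mice. *Cldn14*, which closes the claudin-16 pore, had 2 to 5 counts per library in noncystic and 18 to 20 in cystic *Pkd2* +/+ kidneys, and 0 to 2 and 6 to 13 counts in the deletion groups. The regulators of NKCC2 were also split, with *Wnk1* and *Wnk4* lower (-1.01 and -0.99). *Stk39*, a kinase that phosphorylates NKCC2, and *Maged2* were higher (0.52 and 0.62). *Oxsr1*, another listed regulator, did not pass at 0.14 (SE 0.08, adjusted p = 0.188 by edgeR). *Rragd*, a GTPase of nutrient sensing in which human variants waste magnesium, was higher at 0.61 (SE 0.08). *Slc9a3*, the apical sodium/proton exchanger shared with the proximal tubule, was lower at -1.515 (SE 0.12).

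Of the 6 transcription factors *Esrrb*, *Irx1*, *Irx2* and *Tfap2b* were lower in cystic *Pkd2* +/+ kidneys (-1.09, -0.70, -0.78 and -0.45), 1 was higher and *Pou3f3* was at 0.003 (SE 0.08). The deletion in cystic kidneys gave *Esrrb* 0.76 (SE 0.12), *Irx1* 0.58 (SE 0.09), *Irx2* 0.65 (SE 0.12) and *Tfap2b* 0.48 (SE 0.10), with adjusted p-values of 0.0032, 0.0044, 0.00852 and 0.0211 by edgeR, while the other two did not pass (*Pou3f3* at 0.18). The 2 comparisons share the cystic *Pkd2* +/+ mice, so a deviation of those mice enters both with opposite signs. Among deletion mice 1 of the 6 still differed between cystic and noncystic kidneys, *Esrrb* at -0.43 (SE 0.11, adjusted p = 0.0105).

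The deletion in cystic kidneys called 12 of the 34 genes, 10 higher and 2 lower (2.23% of all genes), and 7 without mouse 27. Besides the factors these included *Cldn10* (0.70), *Egf* (1.12, adjusted p = 0.0018), *Gcgr* (0.69), *Ptger3* (0.65) and *Slc9a3* (0.78) higher, and *Cldn3* (-0.50) and *Rragd* (-0.43) lower. The pump subunit *Atp1b1* had a log2 fold change of 0.24 (SE 0.10, adjusted p = 0.248 by edgeR), and 0 of the 6 regulators passed. In noncystic kidneys the deletion called 0 of 34 by edgeR, limma-trend and DESeq2, with 4 at an unadjusted p under 0.05 by edgeR. Among deletion mice 24 of 34 differed between cystic and noncystic kidneys, 19 lower and 5 higher, beside 23% of all genes. They included 7 of the 8 basolateral and pump genes (6 with library totals, and *Kcnj10* was at -0.16, adjusted p = 0.395) and *Egf* at -2.26 (SE 0.16). For the difference of the deletion effects 0 of 34 passed, 14 had an unadjusted p under 0.05 (8.33% of all genes), and limma-trend called 1 and DESeq2 5.

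**Figure D4:**
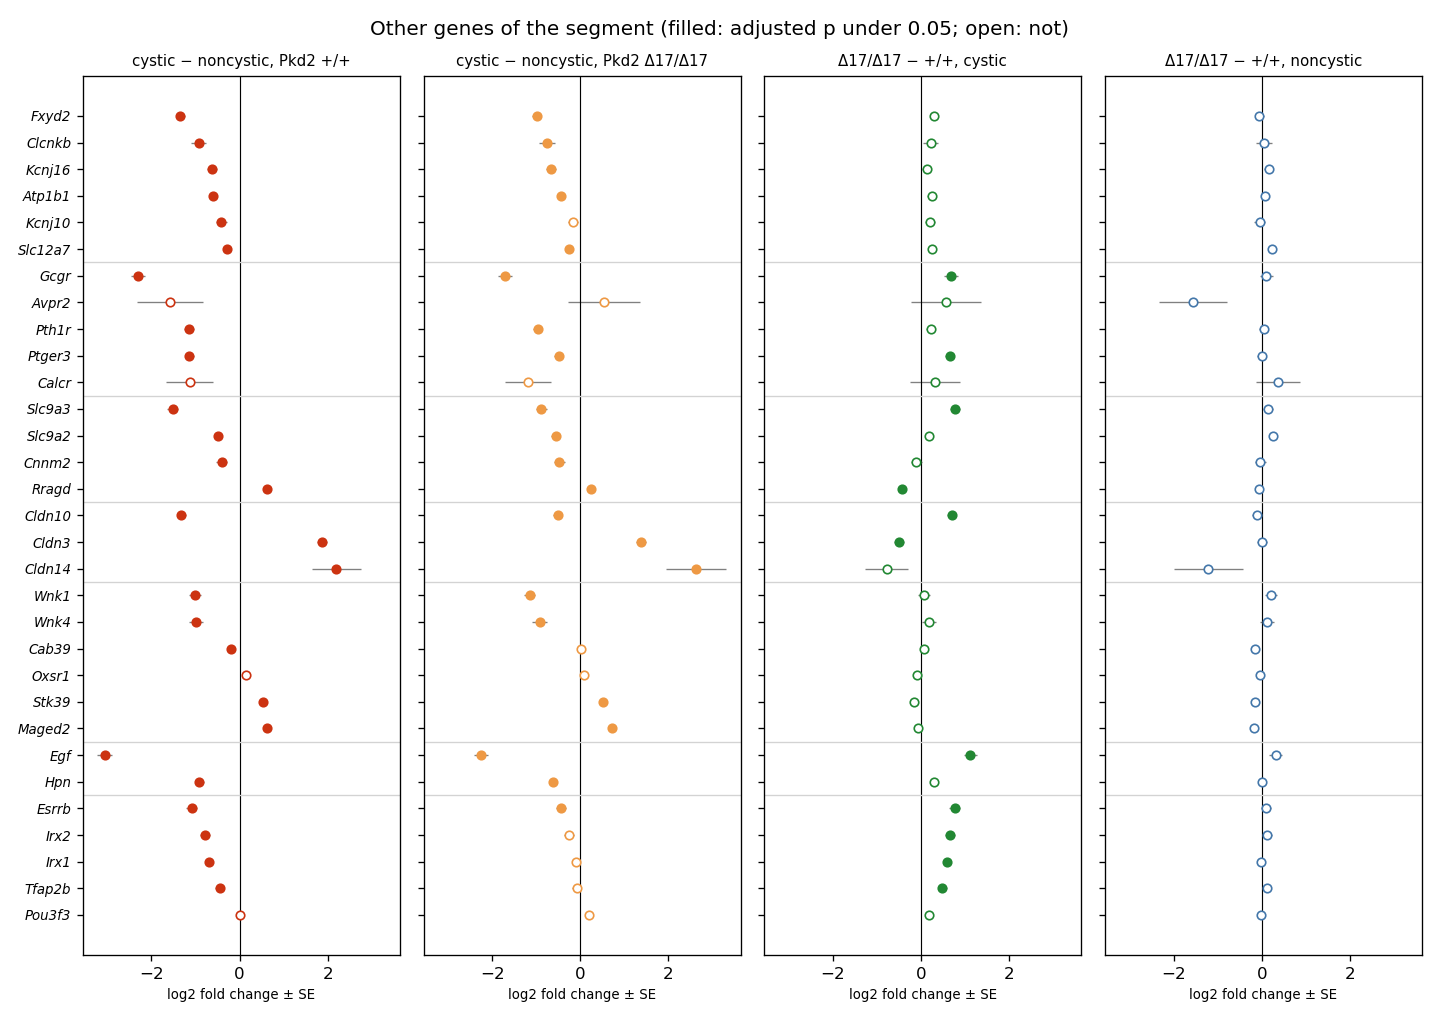
Log2 fold change (horizontal axes, same range) with 1 standard error of 31 of the 34 other genes of the segment, in 4 comparisons between groups of 3 mice. Filled points have an adjusted p under 0.05 and open points do not, and grey lines separate the 7 lists. Filled points number 27, 22, 11 and 0 from left to right.

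Genes whose pattern over the 12 mice lay nearest to a member were found by the root mean square difference of log2CPM, each centred on its own mean, over the 13691 genes whose log2CPM averaged 1 or more. The nearest to *Slc12a1* were *Cyfip2* (0.10), *Mep1b* (0.12) and *D030045P18Rik* (0.12), and to *Bsnd* they were *Aqp1* (0.12), *Slc39a8* (0.13) and *Cxcl12* (0.15). For *Tmem207* the nearest were *Lrrc66* (0.21), *Dusp9* and *Abca13* (0.25 each), for *Casr* *Mfsd4a* (0.17), *Rdh19* (0.18) and *Shank2* (0.19), and for *Umod* *Stxbp4* (0.14), *Plekhg1* and *Dync2h1* (0.16 each). *Cldn19* had *Robo1* (0.12), *Veph1* and *B3glct* (0.13 each), *Cldn16* had *Zfp260*, *Smc6* and *Ncaph2* (0.06 each), and *Kcnj1* had *2010315B03Rik* (0.10) at rank 2 and *Pard6a* (0.11) at rank 3. Among the members the closest pair was *Slc12a1* and *Bsnd* at 0.19, and the farthest was *Tmem207* and *Cldn19* at 1.26. The nearest member stood at rank 7980 of the 13691 genes for *Kcnj1* and at rank 5786 for *Cldn16*. These genes varied little over the 12 mice (SD 0.189 and 0.19 on the log2 scale). The measure is not scaled by spread, so other genes that vary little lie close to them, and these ranks say little about pattern.

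The summed level of the 8 members was 2943 to 3453 CPM in noncystic *Pkd2* +/+, 3333 to 3702 in noncystic *Pkd2* Δ17/Δ17, 1857 to 2581 in cystic *Pkd2* +/+ and 3493 to 3610 in cystic *Pkd2* Δ17/Δ17 kidneys. In whole kidney, fewer cells of the segment, less RNA per cell and a change in reads from other cells cannot be told apart. Marker lists of other cells moved in the same comparisons, and their part in the members' values was not tested. Macrophage markers were all higher in cystic *Pkd2* +/+ kidneys (5 of 5, summed level 111 to 115 CPM in noncystic and 246 to 345 in cystic), and 3 of 5 were lower with the deletion (188 to 240 CPM). Fibroblast and myofibroblast markers were higher for 3 of 5 (1282 to 1436 and 2114 to 3355 CPM), with 0 called for the deletion (2034 to 2649 CPM), and principal cell markers for 3 of 6 (1230 to 1380 and 1977 to 3619 CPM), with 0 called (1638 to 2382 CPM).

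Proximal tubule markers were lower for 6 of 6 (6034 to 7723 and 2158 to 3352 CPM), with 2 higher with the deletion (2893 to 4158 CPM), and distal convoluted tubule markers for 5 of 5 (1103 to 1598 and 279 to 581 CPM), with 0 called for the deletion (418 to 640 CPM). Thin limb markers, 1 of which is also in a list of the segment, were lower for 3 of 4 (1335 to 1435 and 673 to 956 CPM), and 3, *Aqp1* and *Slc14a2* among them, were higher with the deletion (1023 to 1222 CPM). Podocyte markers were lower for 4 of 5 and higher for 1 (552 to 658 and 319 to 370 CPM), endothelial markers lower for 3 of 5 (495 to 576 and 355 to 410 CPM), and intercalated cell markers lower for 2 and higher for 1 of 5 (491 to 600 and 357 to 548 CPM). With the deletion in cystic kidneys 0 podocyte, 1 endothelial and 0 intercalated cell markers were called. The 2 macula densa markers, *Nos1* and *Ptgs2*, were called in none of the comparisons and together reached 3.87 to 9.59 CPM. The deletion in noncystic kidneys called 0 genes of any list. Among deletion mice 6 of 6 proximal tubule and 5 of 5 distal convoluted tubule markers were lower in cystic kidneys and 5 of 5 macrophage markers higher. No marker of the cell types outside the segment was at 0 in any library.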

How the data were processed

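The authors extracted total RNA from whole kidneys with the miRNEASY kit, had libraries made by Genewiz, trimmed reads with Trim Galore 0.6.3, aligned them to GRCm38 with STAR 2.5.3a and deposited raw counts per gene for 54532 genes, with no normalization. The strand column used is not given in the sources used here, so antisense overlaps are given beside the genes. All 12 columns were mapped to mice by their labels, and 343 genes with no name hold 0.0225% of the reads. Libraries of a group differed from each other by more than counting noise.

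The 24642 genes whose log2CPM averaged -3 or more were tested. Counts were tested with edgeR 4.0.16 in R 4.3.3 (quasi-likelihood test, TMM factors, 1 mean per group over all 12 mice, Benjamini-Hochberg threshold 0.05). Bounds quoted as 95% intervals use the moderated degrees of freedom. Alternatives were limma-trend (limma 3.58.1, log2CPM from library totals as in the study's methods, with a prior count of 3 chosen here), DESeq2 1.42.0, library totals or DESeq2 size factors in edgeR, no cutoff, filterByExpr, only the compared groups, *Xist* as a covariate and leaving out each mouse. Tested on counts simulated for the deletion in cystic kidneys over 24642 genes, edgeR called 99.6% of the genes changed 4-fold and 89% of those changed 2-fold, and 6.1% of its calls were false. Changed genes were drawn only from genes above a cutoff on mean count, so these rates do not cover genes with low counts. All other genes had the same mean level in every group.

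The members and all gene lists were chosen with earlier results of these data known. Named genes are the members, the listed genes, *Pkd1* and *Pkd2*, *Xist*, genes overlapping a member and the 3 nearest genes of each member. Coordinates, exons and 3′-UTRs come from GENCODE M21, in which 99.93% of the identifiers were found. Some listed genes are counted but not reported here by name.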

Additional observations from a re-analysis of the deposited data

How the results depend on the processing

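No paired analysis was possible because the groups share no replicate numbers. The count of members called among deletion mice (3) was 5 with no cutoff on low counts. The count for the difference of the deletion effects (0) was 1 with limma-trend, 3 with DESeq2, 1 with library totals, 4 with no cutoff, 1 with *Xist* as a covariate and 0 to 3 leaving out 1 mouse. The 12 other genes of the segment called for the deletion in cystic kidneys became 7 to 12 leaving out 1 mouse, with 7 without mouse 27. The other counts of called members and listed genes stayed, in each alternative run, within 1.5 times the value reported. Over all genes, DESeq2 called 1128 for the deletion in cystic kidneys (549 by edgeR), 134 for the difference of deletion effects (3) and 3 in noncystic kidneys (1). Signs turned for *Umod* in *Pkd2* +/+ disease (0.032 with limma-trend, 0.052 with library totals, -0.312 to 0.076 leaving out 1 mouse), *Kcnj1* among deletion mice (0.124 with limma-trend, 0.118 with library totals, -0.147 to 0.076), *Casr* among deletion mice (-0.05 to 0.25), *Cldn19* for the deletion in noncystic kidneys (-0.186 to 0.034) and *Cldn16* for the difference of deletion effects (0.048 with *Xist*, -0.067 to 0.087). The cause of these changes was not tested.

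With library totals the median of all genes moved by 0.16 in *Pkd2* +/+ disease and 0.15 among deletion mice, and the share of called genes that were higher went from 54.4% to 71.7% and from 55.7% to 76.3%. Limits are 3 mice per group, whole tissue with mixed cells, and counts whose strand setting is not known. The p-values set a difference between groups against the spread between these mice, moderated across genes.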
